A study of Mus musculus with 6 samples.

Results

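Genes of the doublecortin family were followed in RNA-Seq of E14.5 mouse lenses. The 4 members, Dcdc2a, Dcx, Dclk1 and Dclk2, were taken by name from the 13024 genes of the deposited count table. Dcdc2a was chosen because its counts were higher in the pools labelled CKO, so its difference between the groups is given as a description, with no test. The other members were chosen as its relatives, in part because a retinal origin of their RNA had been raised by earlier results of these data. All 4 passed the filter of at least 10 counts in at least 3 libraries, as did 12879 genes of the table. The further doublecortin-domain genes Dcdc1, Dcdc2b, Dcdc2c, Dcdc5, Dclk3, Rp1 and Rp1l1 were also looked for. Of these 7 names, 0 were in the table.

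Every pool held 10 lenses of 5 embryos, on a mixed C57BL/6 and FVB background, with 3 pools in each group. The CKO embryos were Gata3 f/f and carried Pax6-Cre, which is driven by a Pax6 ocular enhancer and promoter in the lens and corneal precursors of the head ectoderm and removes exon 4 of Gata3. The control embryos carried no Cre. Their genotype is given both as Gata3 f/wt and as Gata3 f/f in the study, and the labels call them wild type. As Cre was in the CKO embryos alone, its presence and the loss of Gata3 cannot be told apart between these groups.

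Doublecortin domains bind microtubules and stabilize them. Dcx is the founding member of the family, a marker of migrating and newly formed neurons, and its loss in humans causes X-linked lissencephaly. Dclk1 and Dclk2 join a pair of doublecortin domains to a protein kinase domain and are abundant in neurons. Dcdc2a is the mouse counterpart of human DCDC2, whose protein is found at microtubules and in the primary cilium, and whose variants have been linked to reading disability, deafness and nephronophthisis.

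Dcdc2a lies on chromosome 13 (25056004–25210706, forward strand, mm10), Dcx on chromosome X (143855842–143933311, reverse strand), Dclk1 on chromosome 3 (55242364–55539068, forward strand) and Dclk2 on chromosome 3 (86786151–86920852, reverse strand). The deposited values are a single count for each gene, so they do not show which start site or exon the fragments came from. The study measured Dcdc2a separately with a primer pair, which is printed here to show which part of the transcript it reads. In the GENCODE M21 transcripts Dcdc2a-201 and Dcdc2a-202, the forward primer lies in exon 4 (chr13:25102558-25102576) and the reverse primer in exon 5 (chr13:25107607-25107626), with a product of 131 bases. In Dcdc2a-203 the same places are exons 3 and 4.
Dcdc2a forward primer: cgcctcctcatccctaaaa
Dcdc2a reverse primer: ccactctcaaccagctttcc

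Because Gata3 binds DNA at the letters GATA, the 250 bases before the annotated start were searched for GATA on both strands (GATA or TATC). Matches are in capitals below. RefSeq (GRCm38.p6) gives 6 start sites for the 4 genes, 2 of them each for Dcx and Dclk1. The window of Dcdc2a (chr13:25055754-25056003, forward strand) held 1 match, which began 235 bases before the start, and the first window of Dcx (chrX:143933220-143933469, reverse strand) held 0. These windows are shown as the pair of genes that differed most in pattern, a difference that holds the gap for which Dcdc2a was chosen. Nothing is read from 1 match against 0, as the other window of Dcx, given below, held 1.
Dcdc2a window: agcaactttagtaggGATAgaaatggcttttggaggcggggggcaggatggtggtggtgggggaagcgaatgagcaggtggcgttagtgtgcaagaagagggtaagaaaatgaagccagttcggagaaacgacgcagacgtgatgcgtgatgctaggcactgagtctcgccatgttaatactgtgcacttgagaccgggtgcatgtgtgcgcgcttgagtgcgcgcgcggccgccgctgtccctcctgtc
Dcx window: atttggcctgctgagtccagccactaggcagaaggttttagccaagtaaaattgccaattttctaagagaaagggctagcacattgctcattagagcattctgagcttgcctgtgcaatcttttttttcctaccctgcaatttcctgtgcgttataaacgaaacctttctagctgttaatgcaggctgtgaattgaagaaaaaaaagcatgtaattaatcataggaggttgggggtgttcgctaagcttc

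The second, overlapping window of Dcx held 1 match, the windows of Dclk1 held 2 and 1, and that of Dclk2 held 1. Of the 12935 start windows of genes in the table, 40.6% held at least 1 match, and of all 32851 windows 53.6% did. Longer matches, with A or T before GATA and A or G after it on either strand, were present in 1 of the 6 windows, the second of Dclk1, and in 16.4% of the windows of genes in the table. A match is a description of these letters and not a site of binding.

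The libraries held 15157230 to 18811104 counts. Levels are given as CPM, counts scaled to a common library size after TMM normalization in edgeR. Crystallin genes took 16.5% of the counts in control pool 2 and 5.47% to 9.31% in the other libraries. The lens genes Mip and Foxe3 were present in every library, as were the retinal genes Atoh7 (106 to 253 CPM) and Pou4f2 (37.6 to 103 CPM). The Gata3 count, which covers the whole gene and not exon 4 alone, was higher in the pools labelled CKO (53.2 ± 6.29 CPM, SD, n = 3) than in control (16.2 ± 9.71 CPM, SD, n = 3). A count over the whole gene does not check the deletion of an exon, so directions are given for the pools labelled CKO. The study itself reports the excision of exon 4 in mutant lenses from its RNA-Seq reads. It also reports a strong drop of Gata3 in lens RNA by qPCR with primers that include exon 4.

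Dcdc2a was a gene of low level that was higher in each pool labelled CKO than in any control pool. It had 32, 44 and 29 counts in control pools 1, 2 and 3, or 2.03, 3.10 and 1.62 CPM. In the pools labelled CKO it had 156, 140 and 113 counts, or 10.1, 7.12 and 5.88 CPM. The groups did not overlap, and control pool 2 was the highest of the control pools. The 95% Poisson intervals, which cover counting error only, were 2.25 to 4.16 CPM in control pool 2 and 4.85 to 7.07 CPM in CKO pool 3. They describe single pools and are no test of the groups, on whose difference the gene was chosen.

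The mean of Dcdc2a was 2.25 ± 0.765 CPM (SD, n = 3) in control and 7.70 ± 2.18 CPM (SD, n = 3) in the pools labelled CKO, a ratio of 3.43. Its log2 fold change in edgeR was 1.78 (standard error 0.33), a value whose direction and size were the reason for choosing the gene. When single pools were left out, it lay between 1.54 (without CKO pool 1) and 2.09 (without control pool 2). With a prior on fold changes in DESeq2, which shrinks imprecise values towards 0, it was 0.60.

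Dcx was among the genes of higher CPM in these pools, without regard to length, and did not separate the groups. Its CPM was 150.0, 63.6 and 239 in control pools 1, 2 and 3, and 188, 135 and 174 in the pools labelled CKO. All the CKO values lay between the lowest and the highest control value. The control pools spanned 3.76-fold, and their counts of 2367, 902 and 4276 leave little counting error.

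The mean of Dcx was 151 ± 87.6 CPM (SD, n = 3) in control and 166 ± 27.7 CPM (SD, n = 3) in the pools labelled CKO. The log2 fold change was 0.13 (standard error 0.43, 95% interval -0.90 to 1.17, adjusted p = 0.9998 from the quasi-likelihood test of edgeR). The interval includes a change of 1 upwards on the log2 scale. The sign depended on control pool 2, without which the log2 fold change was -0.22.

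Dclk1 showed the same library pattern with a smaller spread. Its CPM was 124, 71.2 and 168.0 in control pools 1, 2 and 3, and 135, 120.0 and 131 in the pools labelled CKO. Control pool 2 was again the lowest pool and control pool 3 the highest. The log2 fold change was 0.09 (standard error 0.28, 95% interval -0.59 to 0.77, adjusted p = 0.9998 from the quasi-likelihood test of edgeR), and it was -0.17 without control pool 2.

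Dclk2 had 61.9, 38.8 and 90.5 CPM in control pools 1, 2 and 3, and 70.5, 58.0 and 66.9 CPM in the pools labelled CKO. The groups overlapped, with the lowest and the highest value again in control pools 2 and 3. The log2 fold change was 0.03 (standard error 0.29, 95% interval -0.66 to 0.71, adjusted p = 0.9998 from the quasi-likelihood test of edgeR). It was -0.22 without control pool 2 and -0.03 without CKO pool 1. In the exact two-sided permutation test of log2 CPM, Dcx, Dclk1 and Dclk2 each had p = 0.8, where 3 pools against 3 cannot go below 0.1.

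**Figure D1:**
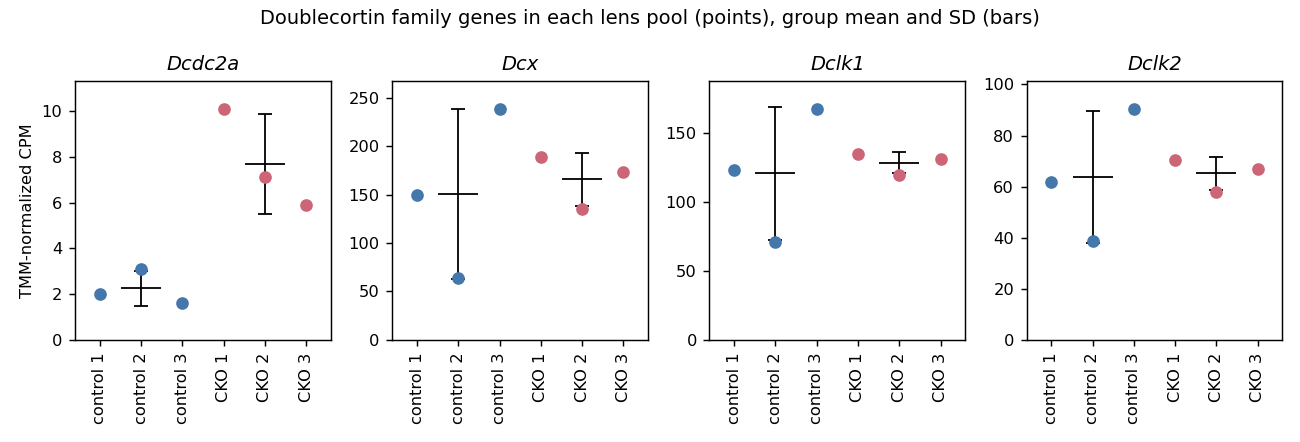
TMM-normalized CPM (vertical axis, from 0) of Dcdc2a, Dcx, Dclk1 and Dclk2 in the 3 control pools (blue) and the 3 pools labelled CKO (red), with the mean and SD of each group as bars. Only in Dcdc2a, with 1.62 to 3.10 CPM in control and 5.88 to 10.1 in the pools labelled CKO, do the groups not overlap, while in the other genes control 2 is lowest and control 3 highest.

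Of Dcx, Dclk1 and Dclk2, 0 had an adjusted p-value under 0.05 in edgeR, as did 0 (0%) of the 12879 genes tested. An unadjusted p-value under 0.05 was found for 457 genes, or 3.55%. By the Wald test of DESeq2 85 genes had an adjusted p-value under that threshold, and by limma voom 0. All CKO values lay above all control values in 1 member, Dcdc2a, against 3.67% of all genes, and below them in 0 members, against 4.69%. Since Dcdc2a was chosen on this contrast, nothing is read from that count.

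**Figure D2:**
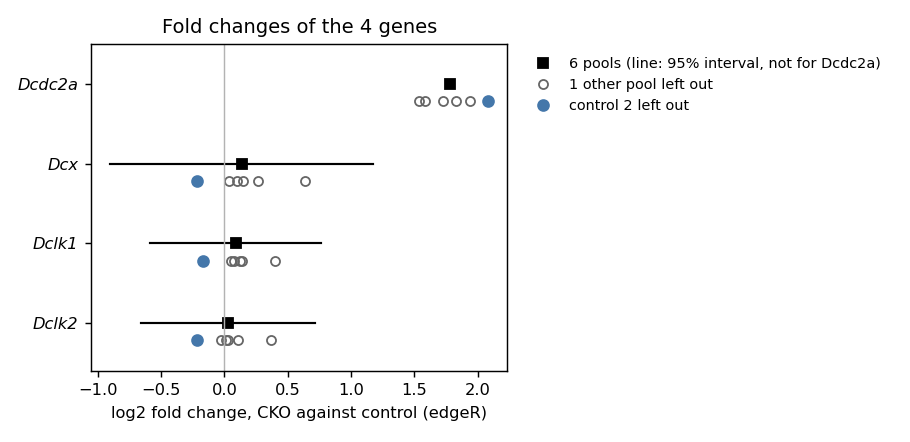
Log2 fold change of CKO against control (horizontal axis) from edgeR for each gene, as squares, with 95% intervals for Dcx, Dclk1 and Dclk2 and none for Dcdc2a, which was chosen on this contrast. Circles give the value with a single pool left out, filled for control pool 2. Dcdc2a stayed between 1.54 and 2.09, while the values of Dcx, Dclk1 and Dclk2 moved to -0.22, -0.17 and -0.22 without control pool 2.

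Levels of the 4 members were compared with each other only per length, as CPM per kilobase of merged GENCODE exons. The order was Dcx, Dclk1, Dclk2 and Dcdc2a, with 12.5 ± 4.64, 8.16 ± 2.05, 6.11 ± 1.60 and 0.601 ± 0.401 CPM per kilobase (SD, n = 6 pools of both groups). Dcx was above Dclk1 and Dclk1 above Dclk2 in each of the 6 libraries, although the ranges over the pools overlapped (5.03 to 18.9 for Dcx, 4.66 to 11.0 for Dclk1 and 3.68 to 8.57 for Dclk2). Dcdc2a was below the others beyond any spread, with at most 1.22 CPM per kilobase against at least 3.68 for Dclk2. Merged exons overstate the length of genes with several start sites such as Dclk1. By CPM without regard to length, the mean of Dcdc2a exceeded 9.85% of the genes tested and that of Dcx 90.2%.

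The control pools differed in the levels of retinal markers, and Dcx, Dclk1 and Dclk2 differed in the same direction. All 19 genes of a list of retinal neuron markers were higher in control pool 3 than in control pool 2, with a median log2 ratio of 1.69 (1.25 to 2.0). All 10 retinal progenitor markers were also higher, with a median of 1.06. The log2 ratio was 1.91 for Dcx, 1.24 for Dclk1 and 1.22 for Dclk2, and it was -0.94 for Dcdc2a. The median over all genes tested was -0.02. This pair of libraries was picked after the values had been seen and has no replicate.

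The 19 retinal neuron markers summed to 1620, 826 and 2510 CPM in control pools 1, 2 and 3 and to 1907, 1656 and 2193 CPM in the pools labelled CKO. None was at 0, and its defining markers are Atoh7, needed to make retinal ganglion cells, and Pou4f2, a factor of those cells. In pooled tissue, fewer cells of a type and less RNA per cell cannot be told apart.

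Set against this sum, the levels of Dcx were nearly even. Dcx had 9.26, 7.70 and 9.52 CPM per 100 CPM of the list in control pools 1, 2 and 3, and 9.88, 8.15 and 7.93 in the pools labelled CKO. The highest was 1.28 times the lowest, against 3.76 times for CPM. For Dclk1 this ratio of highest to lowest was 1.44 against 2.36 for CPM, and for Dclk2 it was 1.54 against 2.33. In Dcdc2a it was 8.22 against 6.24, so that scaling by the list spread its values further. On this scale, which was added after seeing the data, the differences between the groups were -0.03 for Dcx, -0.17 for Dclk1 and -0.24 for Dclk2 on the log2 scale (exact two-sided permutation test, p = 1, 0.4 and 0.2).

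**Figure D3:**
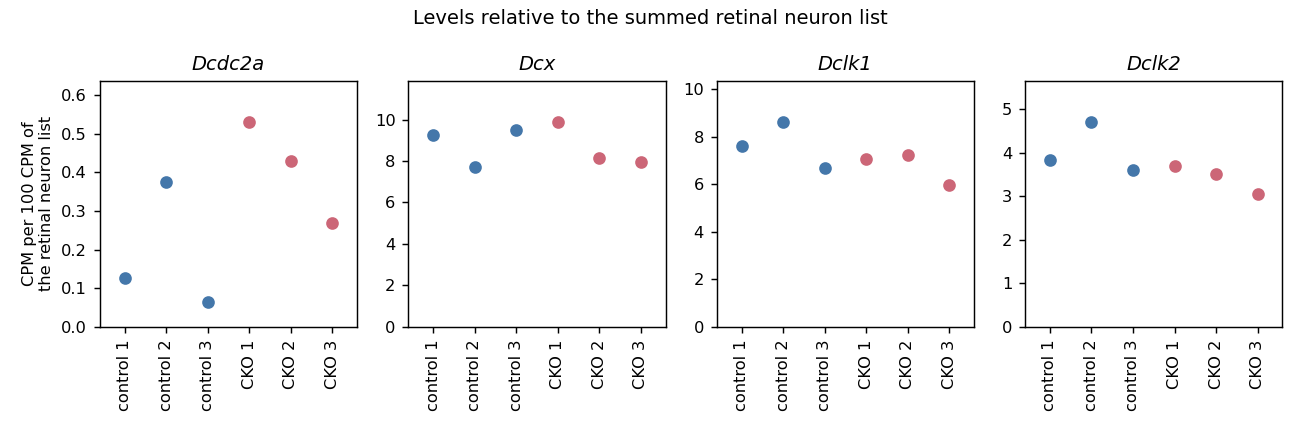
CPM of each gene per 100 CPM of the summed retinal neuron list (vertical axis, from 0) in the 3 control pools (blue) and the 3 pools labelled CKO (red). The values of Dcx lie between 7.70 and 9.88, while those of Dcdc2a range from 0.0645 to 0.530.

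A fit with the mean of both retinal lists as a covariate gave log2 fold changes with smaller standard errors for the neuronal members. They were -0.04 for Dcx (standard error 0.0928), -0.05 for Dclk1 (0.0692) and -0.12 for Dclk2 (0.0799), with adjusted p-values of 0.974, 0.938 and 0.855 from the quasi-likelihood test of edgeR. That of Dcdc2a was 2.0 (standard error 0.27). What part retinal RNA has in the levels of any member was not tested beyond these values.

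The genes closest in pattern to each member were found by the root mean square difference of log2 CPM, centred on the mean of each gene, over the 6 libraries. Closest to Dcx was Pou4f1, a transcription factor of retinal ganglion cells and sensory neurons, with a difference of 0.0289 where the median gene had 0.615. Gdap1l1, Hecw1, Rab3c and the neuronal kinesin gene Kif5a followed, with 0.0483 to 0.0600. Of the 100 genes closest to Dcx, 11 were among the 19 retinal neuron markers, against 2 for Dclk1 and 1 for Dclk2. The median difference from the retinal neuron list was 0.140 for Dcx, 0.183 for Dclk1 and 0.203 for Dclk2. From the 10 retinal progenitor markers it was 0.322 for Dcx and 0.147 for both Dclk1 and Dclk2, so that by this median these kinases lay closer to the progenitor list. The count among the 100 closest genes did not show this, with 1 progenitor marker for Dclk1 and 0 for Dclk2. Of 25 genes for neuronal microtubule-associated proteins, 4 were among the 100 closest to Dclk1, 3 for Dclk2 and 4 for Dcx.

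Closest to Dclk1 were Phf21b, Lynx1, Pnma2, D430019H16Rik and the calcium-dependent phosphodiesterase gene Pde1b, with differences of 0.0185 to 0.0376. Closest to Dclk2 were Prr36, Insm1, a factor of neuronal and endocrine precursors, the microtubule-associated protein genes Map2 and Map1b, and the adhesion gene Ncam1, with 0.0295 to 0.0435. Dclk1 and Dclk2 were themselves close (0.0603), with Dclk2 in place 21 among the 12878 other genes. Dcx was further from both (0.230 and 0.245).

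The difference of Dcdc2a was 1.03 from Dcx, 0.94 from Dclk1 and 0.95 from Dclk2, where the median gene had 0.868. These distances hold the gap between the groups for which Dcdc2a was chosen, and nothing is read from their size. The closest were Dgkg, a diacylglycerol kinase, Atp10d, a phospholipid flippase, the neuropeptide receptor genes Tacr1 and Cckbr, and Ednrb, an endothelin receptor, with 0.157 to 0.257. Each of these was higher in all pools labelled CKO than in all control libraries, which follows from likeness to a gene chosen for that pattern.

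Within the groups, the order of the pools in Dcdc2a was that of the lens fibre markers. The 11 fibre markers of the table, among them the crystallin gene Cryaa and the aquaporin gene Mip, summed to 68741, 137219 and 46963 CPM in control pools 1, 2 and 3. They summed to 61865, 49099 and 45415 CPM in the pools labelled CKO. Both Dcdc2a and this sum were highest in control pool 2 and in CKO pool 1 of their group, and lowest in pool 3 of each. The lens epithelium sum was also highest in control pool 2 (3931 CPM) and in CKO pool 1 (3213 CPM). It was lowest in control pool 3 (2670 CPM) and nearly equal in CKO pools 2 and 3 (2993 and 2999 CPM). The match was found among several marker lists and is not particular to fibre markers. Between the groups Dcdc2a and the fibre markers differed in direction, since all 11 fibre markers had negative log2 fold changes (median -0.90, and -0.38 without control pool 2). The Poisson intervals of Dcdc2a overlapped between control pools 2 (2.25 to 4.16 CPM) and 3 (1.08 to 2.33 CPM) and between CKO pools 2 (5.99 to 8.40 CPM) and 3 (4.85 to 7.07 CPM). The order is therefore not firm in control, nor between CKO pools 2 and 3. Only the interval of CKO pool 1 (8.59 to 11.8 CPM) lay above those of the other pools of its group.

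**Figure D4:**
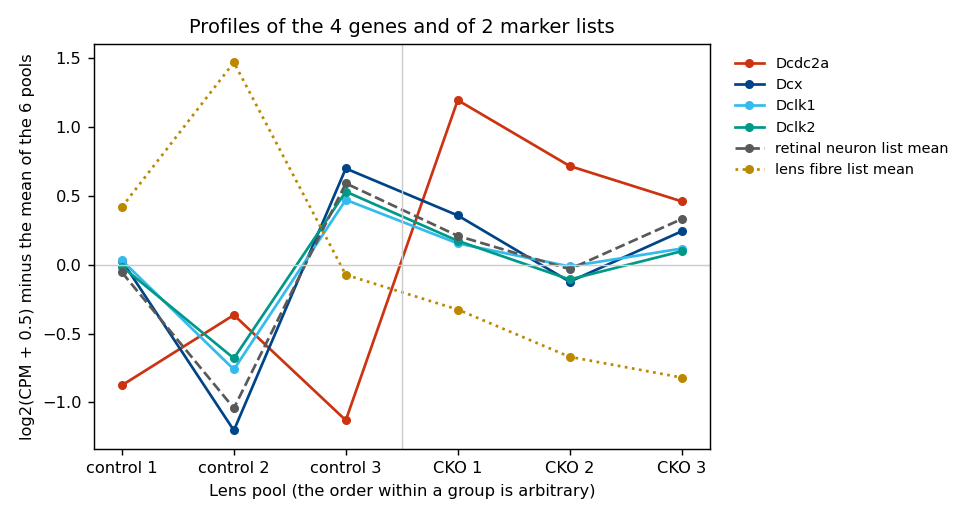
Log2(CPM + 0.5) minus the mean of the 6 pools (vertical axis) for the 4 genes (solid lines), the mean of the retinal neuron list (dashed) and the mean of the lens fibre list (dotted) in each pool. In the control pools Dcx, Dclk1 and Dclk2 have the order of the dashed line, with -1.20 for Dcx in control 2 and 0.70 in control 3, while Dcdc2a ranges from -1.13 in control 3 to 1.19 in CKO 1. In the CKO pools the order differs, as the dashed line is highest in CKO 3 (0.33) and Dcx, Dclk1 and Dclk2 in CKO 1 (0.36, 0.15 and 0.17).

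Other markers also differed between pools. Mesenchyme markers summed to 2442 CPM in control pool 1 and 4270 CPM in CKO pool 2, against 341 to 714 CPM in the other libraries, and pigment cell markers were high in the same pair (341 CPM in each, against 69.8 to 98.6). The members did not peak in these pools. Vessel (229 to 326 CPM), macrophage (51.3 to 100.3), surface ectoderm (35.5 to 150.2) and lens epithelium (2670 to 3931) sums overlapped between the groups. The part of these tissues in the levels of the members was not tested.

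Genes that work with the doublecortins in neurons had median differences near 0. Of 25 genes for neuronal microtubule-associated proteins, 0 passed the test in either direction (0 adjusted and 0 unadjusted, against 0% and 3.55% of all genes), and the median difference was 0.08 on the log2 scale (-0.09 without control pool 2), against 0.00 over all genes. Map1b had 998, 643 and 1371 CPM in control pools 1, 2 and 3 and 920.0 to 1080 CPM in the pools labelled CKO, a log2 fold change of 0.01. Dpysl3, a collapsin response mediator of growing axons, had one of 0.16. The extremes were Stmn4, a tubulin-binding stathmin, with 0.23 and Mapre3, which binds microtubule plus ends, with -0.29.

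Of 22 tested genes for neuronal migration and lissencephaly, 0 passed after adjustment, against 0% of all genes. An unadjusted p-value under 0.05 was found for 1 of them, against 3.55% of all genes. This was Cdk5, a kinase that phosphorylates Dcx, at 35.5, 38.6 and 37.5 CPM in control pools 1, 2 and 3 and 48.5, 43.6 and 42.7 CPM in the pools labelled CKO. Its groups did not overlap (all CKO above all control in 3.67% of all genes), with a difference of 0.27 on the log2 scale (standard error 0.0870), and the adjusted p was 0.9998 in the quasi-likelihood test of edgeR. The median of this list was 0.02. Dync1i1, a dynein intermediate chain gene, had the lowest log2 fold change, -0.62 (standard error 0.29). Ywhae and Dync1h1, the most abundant, had 0.04 and -0.17. With the retinal covariate 1 gene of the list passed, Reln, which encodes the migration signal reelin, at -0.34 (standard error 0.0606, adjusted p = 0.0309 in edgeR), and it was named after its values had been seen. In that fit 1.01% of all genes passed.

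Of 14 tubulin genes tested, 0 passed in either direction before or after adjustment, against 3.55% and 0% of all genes. Their median was 0.06. Tubb5 and Tuba1a, the most abundant, had log2 fold changes of 0.06 and 0.08, Tubb4a had 0.34 and Tuba4a -0.35.

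Genes of the cilium, where the DCDC2 protein is found, also had a median difference near 0. Of 35 tested genes for ciliary transport and nephronophthisis, 0 passed in either direction before or after adjustment, against 3.55% and 0% of all genes, and the median log2 fold change was 0.03. Kif3a and Kifap3, parts of the ciliary kinesin, had 0.02 and 0.04. Nphp4, which is mutated in nephronophthisis as is DCDC2, had 0.36 (95% interval -0.04 to 0.76). In 11 Hedgehog pathway genes, whose signal is read through the cilium, 0 passed before or after adjustment, against 3.55% and 0% of all genes. Their median was 0.01. The co-receptor genes Boc and Cdon had 0.13 and -0.17, and Smo had -0.05. In Cdon all CKO values (288 to 304 CPM) lay below all control values (322 to 357 CPM), as in 4.69% of all genes, and it was the 1 gene of the 11 to do so.

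The neighbours of Dcdc2a among the genes of the table are Mrs2, a magnesium channel gene 35.6 kb before it, and Nrsn1, a neuronal vesicle gene 41.3 kb after it. In Mrs2 the difference on the log2 scale was -0.12 (standard error 0.0846). All its CKO values (at most 34.4 CPM) lay below all control values (at least 35.2 CPM), as in 4.69% of all genes. In Nrsn1 the difference was 0.93 (standard error 0.66, 95% interval -0.64 to 2.49). The adjusted p was 0.9998 for both from the quasi-likelihood test of edgeR. The mean of Nrsn1 was 1.59 ± 1.31 CPM (SD, n = 3) in control and 3.09 ± 1.04 CPM (SD, n = 3) in the pools labelled CKO. Next to the other members lie Capn6 and Alg13 (Dcx), Spg20 and Nbea (Dclk1), and Lrba and Cd1d1 (Dclk2), with log2 fold changes between -0.26 and 0.21 and overlapping groups. In GENCODE M21 the predicted gene Gm11348 overlaps Dcdc2a, and further predicted genes overlap Dclk1 and Dclk2. As the strand option of the counting is not given in the sources used here, fragments of such genes may not be separable.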

How the data were processed

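The 6 libraries, 3 labelled CKO and 3 control, are strand-specific and poly(A)-selected. Reads had been aligned to mm10 with TopHat2 (2.0.13) and counted on RefSeq genes with HTSeq (0.6.1) by the authors, who deposited raw counts of those genes whose FPKM exceeded 1 in a group mean. Titles number the CKO libraries 1 to 3 and descriptions 2 to 4, and the title numbers are used. The strand option is not given in the sources used here. Depth was 15157230 to 18811104 counts. The members and gene lists were chosen with earlier results of these data known.

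Genes with 10 or more counts in 3 or more libraries were tested with edgeR 4.0.16 in R 4.3.3 (TMM, robust quasi-likelihood fit, Benjamini-Hochberg adjustment over all genes, threshold 0.05), after a check on simulated data. In that check 64% of simulated log2 changes of 1 and 96.5% of those of 2 were recovered. Of the calls, 8.57% and 7.21% were false, which is above the threshold of 0.05. In the 6 libraries themselves 0 of 12879 genes passed. The lens fibre gene Dnase2b, with a log2 fold change of -4.64, had an adjusted p of 0.322 in the quasi-likelihood test of edgeR. Recovery at the rates of the check in pools that differ as these do was not tested. Log2 CPM used an offset of 0.5. Alternatives were DESeq2 1.42.0, voom in limma 3.58.1, other normalizations and filters, the replicate number as a block, a retinal covariate, and each library left out. The ratio to the retinal list and the comparison of control pools 2 and 3 were added after seeing the data. Named genes were the members, their neighbours and closest genes, Gata3, defining markers, and from each list the genes with the highest and lowest log2 fold change and the 2 most abundant. Some genes that this rule names are not reported here. Positions and exons came from GENCODE M21 (GRCm38, the assembly of mm10), windows before start sites from RefSeq (GRCm38.p6). Pandas 2.3.3 and matplotlib 3.10.9 (Python 3.11.15) were used for tables and plots.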

Additional observations from a re-analysis of the deposited data

How the results depend on the processing

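The log2 fold change of Dcdc2a kept its direction under all 17 alternatives. Dcdc2a was chosen for that direction in the same 6 libraries, so nothing is read from its being kept. It was 0.60 in DESeq2 with a prior on fold changes and, elsewhere, moved by less than the SD between pools, with 1.54 to 2.09 when each library was left out in turn. The values of Dcx, Dclk1 and Dclk2 lay near 0 and changed sign with the retinal lists as a covariate (-0.037, -0.054 and -0.12) and per summed retinal neuron list (-0.029, -0.17 and -0.24). With each library left out, Dcx ranged from -0.22 to 0.63, Dclk1 from -0.17 to 0.40 and Dclk2 from -0.22 to 0.37. The sign changed without control pool 2 in each, and in Dclk2 also without CKO pool 1 (-0.03). None of these 3 genes passed an adjusted p-value of 0.05 under any alternative run. The number of genes past that threshold was 85 in DESeq2, 78 in DESeq2 with the prior, 130 with the retinal covariate, and 0 to 1 with each library left out, where the 1 came without control pool 3. The median of the ciliary list was 0.012 with the retinal covariate, and 0.0037 to 0.045 with each library left out. The medians of the other pathway lists lay between -0.09 and 0.25 under all alternatives run. Of the 5 genes closest to Dcdc2a, 2 were shared with an offset of 2 CPM, and for Dcx and Dclk1 3 were shared. The cause of these differences was not tested.

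The replicate numbers did not pair the pools: the deviations of same-numbered libraries from their group means correlated across genes at -0.51, 0.09 and 0.48 for numbers 1, 2 and 3. With the replicate number as a block, the log2 fold changes were 1.78 for Dcdc2a, 0.31 for Dcx, 0.17 for Dclk1 and 0.11 for Dclk2, and 0 genes passed the threshold. Only CKO pool 3 of its group correlated best with its own number among the control libraries. With 29 to 44 counts in control, counting error adds to the spread between pools in Dcdc2a.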
